A study of Mus musculus with 6 samples.

Results

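The genes described here are those of fatty acid oxidation, 38 in all, in brown fat of cold-exposed mice with and without toxin-driven loss of regulatory T (Treg) cells. They were chosen by name as enzymes, carriers and assembly factors of the pathway, and fall into 3 steps: activation of fatty acids and their carnitine shuttle (8 genes), mitochondrial beta-oxidation (16) and peroxisomal oxidation (14). Each was matched through its Entrez number to the 25206 features of the arrays. A feature was found for 36 of them, namely 7, 15 and 14 of the 3 steps, while the carnitine palmitoyltransferase Cpt1b and the trifunctional protein subunit Hadhb had no feature under their number and were not analysed here.

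Brown adipose tissue (BAT) came from 6 female FoxP3 DTR B6 mice, 3 given diphtheria toxin (DT 5, DT 9 and DT 16) and 3 given phosphate-buffered saline (PBS 12, PBS 18 and PBS 20). All 6 carried the toxin receptor under Foxp3 control, so that toxin kills Foxp3-expressing cells throughout the body, and the comparison differs only in the injected agent, given into the peritoneum on 2 consecutive days. Per the labels, single housing at 22°C for 1 week was followed by 4°C from the first injection until death 2 days later, no age is given, and the study's methods name a milder cold while its results give the temperature of the labels. RNA of each mouse was hybridized to 1 array, and values are log2 expression estimates.

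Brown adipocytes burn fatty acids to drive heat production. In the cytosol and on organelle membranes acyl-CoA synthetases activate the acids, carnitine palmitoyltransferases carry them into mitochondria, and a cycle of dehydrogenation, hydration, second dehydrogenation and thiolysis shortens them. Peroxisomes shorten very long, branched and dicarboxylic chains with enzymes of their own and pass the products on. In BAT the pathway is under the control of PPAR receptors and the coactivator PGC-1 and is induced by cold.

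The arrays were those of brown fat in both groups. Ucp1, the uncoupling protein of brown adipocytes, was at 14.00, 13.98 and 14.01 in DT and at 14.00, 14.01 and 14.01 in PBS, close to the highest value measured (14.1), and none of 8 brown adipocyte markers was called (median log2 difference -0.01). In 3 of the 8 (37.5%) no DT value overlapped the PBS values, against 18.6% of all features and 32.4% of those in the top 5% of mean signal. These were Dio2, higher in DT (difference 0.40, adjusted p = 0.278, limma), and Cidea and Cox8b, lower (-0.09 and -0.07). Foxp3 itself, below the array median of 5.10, was at 4.30, 4.40 and 4.49 in DT and at 4.55, 4.41 and 4.72 in PBS (adjusted p = 0.587, limma), with overlapping groups, so these arrays do not show the loss of Treg cells by its level. The RT-PCR of Foxp3 in BAT that belongs to the study was not analysed here. Over all features, 436 of 25206 passed limma's test at an adjusted p under 0.05, which is 1.73% of those tested, with 1.29% higher and 0.444% lower in DT. Of 8 macrophage markers 4 were called higher in DT and all 8 had positive differences, with a median difference of 1.40 and a mean level of 8.24 to 8.42 in the DT arrays and of 6.85 to 7.25 in the PBS arrays. None of 8 skeletal muscle markers was called, but they varied widely between arrays, with mean levels of 9.45, 9.65 and 6.58 in DT 5, DT 9 and DT 16 and of 7.80, 9.45 and 8.39 in PBS 12, PBS 18 and PBS 20. Of 5 fibroblast markers 3 were called higher in DT (the collagens Col1a1 and Col3a1, by 1.07 and 1.16, and the receptor Pdgfra, by 0.66) and all 5 had positive differences, with a mean level of 9.59 to 9.80 in the DT arrays and of 8.78 to 9.23 in the PBS arrays. The part of these cell types in the values below was not tested, and in whole tissue fewer cells of a type cannot be told apart from less RNA per cell.

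Most fatty acid oxidation genes lay close together in DT and PBS mice. Of the 36 measured genes, 1 was called, the acyl-CoA synthetase Acsl3, which was lower in DT, and none was called higher. That share, 1 of 36, stands beside 1.73% of all features called in either direction and 0.444% called lower. The median log2 difference was -0.01 over the members and -0.01 over all features, and 26 of the 36 differed by less than 0.1 in either direction. At an unadjusted p under 0.05 there were 6 members (16.7%), against 3344 features (13.3%) in all, and the same number of members with a per-gene linear model without moderation. The 3 DT values lay apart from the 3 PBS values in 9 of 36 members (25%), 3 of them higher and 6 lower. They lay apart in 18.6% of all features and in 32.4% of those in the top 5% of mean signal. The members' median signal was at the 98.4th percentile.

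**Figure D1:**
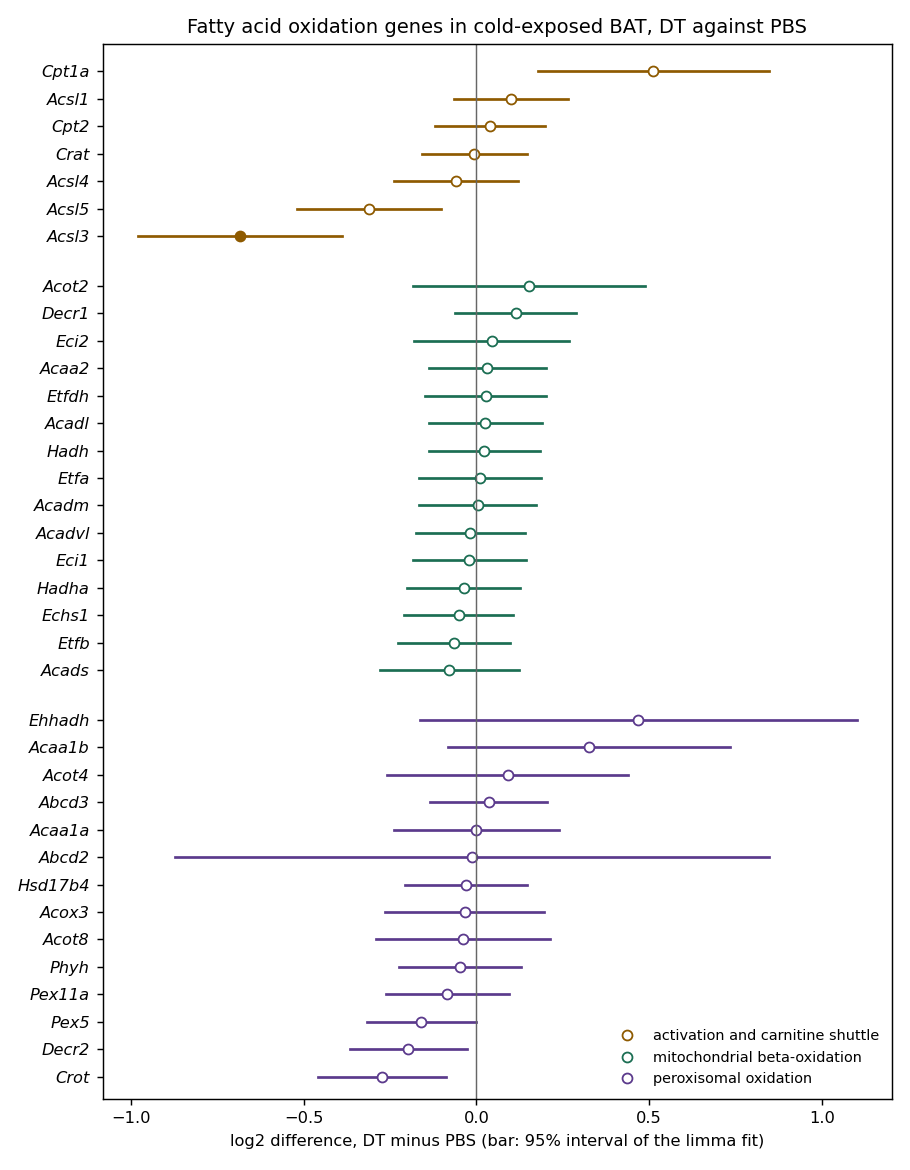
Log2 difference, DT minus PBS, of the 36 measured fatty acid oxidation genes (x axis), grouped by step and sorted within it (y axis); bars are 95% intervals of the limma fit on 3 mice per group, the filled point passed the adjusted threshold and open points did not. Acsl3 at -0.68 stands lowest, Cpt1a at 0.51 highest, and the mitochondrial genes lie between -0.08 and 0.15.

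The activation step held the widest differences, and they ran in both directions. The promoters of the gene called lower and of the gene with the largest positive difference are shown because they have the lowest and the highest difference of the 36 genes. Both are RefSeq sequences of build GRCm38.p6 on the plus strand, from 250 bases before to 50 bases after the start of the gene, at chr1:78657575-78657874 for Acsl3 and chr19:3323051-3323350 for Cpt1a. Capitals mark GGGCGG, the GC box bound by Sp1-type factors, and AGGTCA, the core motif of many nuclear receptors, each on either strand (CCGCCC and TGACCT on the other).
Acsl3: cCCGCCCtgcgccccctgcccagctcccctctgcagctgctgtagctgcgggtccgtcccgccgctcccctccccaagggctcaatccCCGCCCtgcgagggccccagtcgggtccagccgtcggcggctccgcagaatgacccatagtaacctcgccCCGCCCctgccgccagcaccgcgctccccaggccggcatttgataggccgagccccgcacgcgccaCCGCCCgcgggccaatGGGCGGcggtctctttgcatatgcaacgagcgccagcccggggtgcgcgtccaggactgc
Cpt1a: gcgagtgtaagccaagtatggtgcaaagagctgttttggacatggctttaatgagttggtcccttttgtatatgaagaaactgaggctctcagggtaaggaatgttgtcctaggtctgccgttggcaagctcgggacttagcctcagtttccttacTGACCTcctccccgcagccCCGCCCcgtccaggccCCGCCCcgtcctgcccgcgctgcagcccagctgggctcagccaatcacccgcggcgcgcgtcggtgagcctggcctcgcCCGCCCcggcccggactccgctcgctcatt
The Acsl3 window held 5 GC boxes and no AGGTCA, and the Cpt1a window held 3 GC boxes and 1 AGGTCA. Of the 38 genes, 32 matched the promoter table, with 36 windows. GGGCGG was in 66.7% of these windows and in 35.7% of all 32851 windows of the same length, and AGGTCA in 16.7% and 16.3%. The exact PPAR-type direct repeat of AGGTCA with 1 base between the copies, on either strand, was in none of the members' windows and in 0.0396% of all windows. With only 13 matches in 32851 windows, its absence from 36 windows could hardly come out otherwise and tells nothing about PPAR sites. TATAAA, the TATA box, was in 1 member window, that of Acot4 (2.78%), and in 13.6% of all. These are matches of letters in a short window and do not show binding.

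Acsl3, a long-chain acyl-CoA synthetase of the endoplasmic reticulum and of lipid droplets, was at 8.06, 7.76 and 8.09 in DT 5, DT 9 and DT 16 and at 8.64, 8.84 and 8.49 in PBS 12, PBS 18 and PBS 20. All DT values lay below all PBS values. The group means were 7.97 ± 0.18 in DT and 8.65 ± 0.17 in PBS (SD, n = 3 each), a log2 difference of -0.68 (SE 0.13, 95% interval -0.98 to -0.39), or a ratio of 0.623. The adjusted p from limma was 0.0498, at the edge of the threshold, and the call was lost when any 1 of the 6 arrays was left out (adjusted p of 0.101 without DT 5, 0.133 without DT 9, 0.119 without DT 16, 0.165 without PBS 12, 0.101 without PBS 18 and 0.0932 without PBS 20), although the difference stayed between -0.77 and -0.58.

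Acsl5, a synthetase of mitochondrial and endoplasmic reticulum membranes, differed in the same direction without passing the test. It was at 12.95, 12.84 and 12.71 in the DT arrays and at 13.08, 13.23 and 13.11 in the PBS arrays, again with no overlap, and the difference was -0.31 (SE 0.09, 95% interval -0.52 to -0.10, adjusted p = 0.185). When the prior variance was fitted robustly along signal intensity, its adjusted p was 0.0236. The other synthetases had smaller differences. Acsl1, the main acyl-CoA synthetase of adipocytes, was at 13.47, 13.47 and 13.57 in DT and at 13.38, 13.44 and 13.40 in PBS, a narrow separation upwards of 0.10 (SE 0.07, adjusted p = 0.642) close to the top of the measured range, where differences can be compressed. Acsl4, which prefers arachidonic acid, differed by -0.06 with overlapping groups (adjusted p = 0.831).

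Cpt1a, the form of the rate-limiting carnitine palmitoyltransferase best known from liver, had the largest positive difference of the 36 genes. It was at 9.08, 9.26 and 9.61 in DT 5, DT 9 and DT 16, against 8.66, 8.89 and 8.87 in PBS 12, PBS 18 and PBS 20. All DT values were above the PBS values, with DT 16 the highest, and the difference was 0.51 (SE 0.14, 95% interval 0.18 to 0.85), a ratio of 1.43. It did not pass over all features (adjusted p = 0.174). The later enzymes of the shuttle had close means. Cpt2, which takes acylcarnitine back to acyl-CoA at the inner membrane, was at 12.71 ± 0.03 in DT and 12.67 ± 0.05 in PBS, and Crat, the carnitine acetyltransferase, at 13.17 ± 0.02 in DT and 13.17 ± 0.01 in PBS (SD, n = 3 each).

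**Figure D2:**
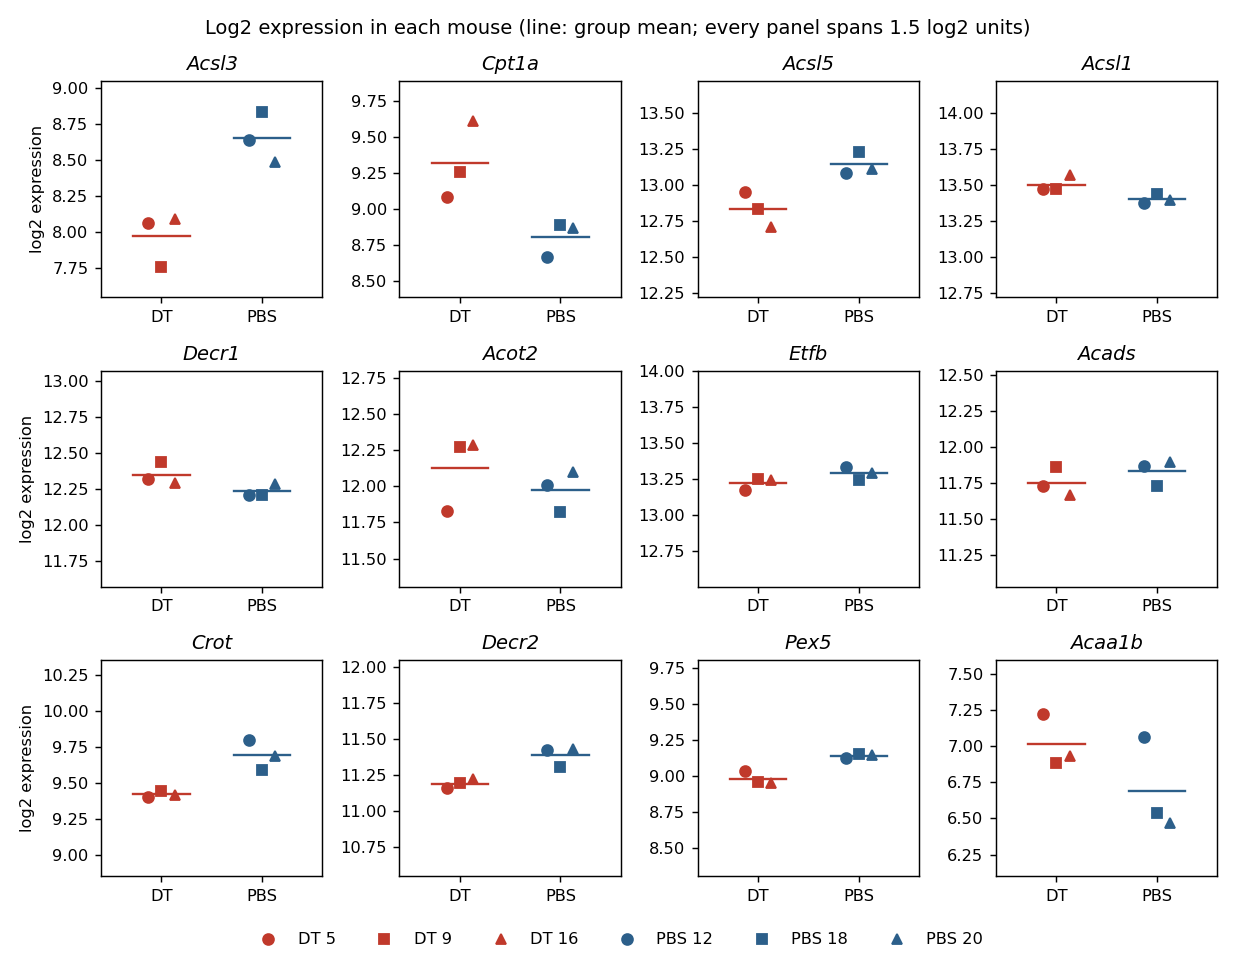
Log2 expression (y axis, 1.5 units in every panel) in each DT and PBS mouse (x axis, 1 point per mouse, line at the group mean) for the 4 members of each step with the smallest unadjusted p: activation and carnitine shuttle on top, mitochondrial in the middle, peroxisomal below. Acsl3, Acsl5, Crot, Decr2 and Pex5 lie lower in all DT mice than in any PBS mouse and Cpt1a, Acsl1 and Decr1 higher, while Acot2, Etfb, Acads and Acaa1b overlap.

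The mitochondrial enzymes had the smallest differences of the 3 steps. None of 15 was called by limma, none had an unadjusted p under 0.05 in limma or in the model without moderation, and the differences ran from -0.08 to 0.15 with a median of 0.01. The median size of the difference, without its sign, was 0.03 in this step, 0.10 in the activation step and 0.07 in the peroxisomal step, against 0.09 over all features and 0.08 over the 1261 features in the top 5% of mean signal, of which 1.43% were called. The signals of these 15 genes lay at the 93.9th percentile of all features or above. Every 95% interval lay between -0.28 and 0.49, that is between ratios of 0.824 and 1.40. A change inside a gene's own interval was not excluded with 3 mice per group. Of the 15 genes, 6 had means above 13, near the upper end of 14.1, where a change can be understated.

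By function, the acyl-CoA dehydrogenases that open each cycle differed by -0.02 for the very long-chain enzyme Acadvl, 0.03 for the long-chain Acadl, 0.00 for the medium-chain Acadm and -0.08 for the short-chain Acads. Acads was at 11.73, 11.86 and 11.67 in DT and 11.87, 11.73 and 11.89 in PBS, with overlapping groups (adjusted p = 0.792). Their electrons pass to the flavoproteins Etfa (0.01) and Etfb (-0.06) and to the dehydrogenase Etfdh (0.03), which hands them to the respiratory chain. Etfb was at 13.17, 13.25 and 13.24 in DT and 13.33, 13.24 and 13.29 in PBS (adjusted p = 0.785).

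Differences of the enzymes that close the cycle were of the same size. Hadha, the hydratase and dehydrogenase subunit of the trifunctional protein, differed by -0.04, the short-chain hydratase Echs1 by -0.05, the dehydrogenase Hadh by 0.02 and the thiolase Acaa2 by 0.03. Among the auxiliary enzymes for unsaturated acids, the isomerases Eci1 and Eci2 differed by -0.02 and 0.04. The dienoyl-CoA reductase Decr1 had the smallest p of the step, at 12.32, 12.43 and 12.29 in DT and 12.21, 12.21 and 12.29 in PBS, so that DT 16 and PBS 20 all but met (difference 0.11, SE 0.07, adjusted p = 0.609). Echs1 was the only other gene of the step whose groups did not overlap.

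Acot2, a thioesterase that frees fatty acids from CoA in the mitochondrial matrix, had the largest difference of the step, 0.15 (SE 0.14, adjusted p = 0.751), and also the largest spread. It was at 11.83, 12.28 and 12.29 in DT 5, DT 9 and DT 16 and at 12.01, 11.82 and 12.10 in PBS 12, PBS 18 and PBS 20, so DT 5 was next to the lowest PBS array. Without DT 5 the difference was 0.30, and without any other single array it was 0.07 to 0.21.

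Of the 14 peroxisomal genes none was called by limma either, while 3 had an unadjusted p under 0.05, also without moderation. Of the 14 genes, 10 had a negative and 4 a positive difference, with a median of -0.03, against 13604 negative differences among all 25206 features. Crot, Decr2 and Pex5 lay wholly below the PBS arrays in DT, and no gene of the step lay wholly above. The groups thus lay apart in 3 of 14 genes (21.4%), against 18.6% of all features. Among features at the 80th percentile of mean signal or above the share was 30.9%, and the median of this step was at the 89.7th percentile. Crot, the octanoyltransferase that prepares chain-shortened acids for export to mitochondria, was at 9.40, 9.45 and 9.42 in DT and at 9.80, 9.60 and 9.69 in PBS. The DT values lay within a few hundredths of each other and the difference was -0.27 (SE 0.08, 95% interval -0.46 to -0.09, adjusted p = 0.191). Decr2, the peroxisomal dienoyl-CoA reductase, was at 11.16, 11.19 and 11.22 in DT and at 11.43, 11.31 and 11.44 in PBS (difference -0.20, SE 0.07, adjusted p = 0.297). Pex5, the receptor that brings most enzymes into the peroxisome, was at 9.04, 8.96 and 8.95 in DT and at 9.12, 9.16 and 9.15 in PBS (difference -0.16, SE 0.07, adjusted p = 0.372).

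The other peroxisomal enzymes lay on both sides of 0. Acaa1b, a thiolase, was at 7.23, 6.88 and 6.93 in DT and at 7.07, 6.54 and 6.47 in PBS, where PBS 12 overlapped the DT arrays (difference 0.32, SE 0.17, adjusted p = 0.504). Its close relative Acaa1a averaged 8.30 ± 0.14 in DT and 8.30 ± 0.12 in PBS (SD, n = 3 each), and whether probes of such similar genes read each other's transcripts was not tested. The branched-chain oxidase Acox3 differed by -0.03, the D-bifunctional protein Hsd17b4 by -0.03, the phytanic acid enzyme Phyh by -0.05, the acyl-CoA importer Abcd3 by 0.04, the thioesterases Acot4 and Acot8 by 0.09 and -0.04, and the division factor Pex11a by -0.08. Adjusted p-values of these 7 genes lay between 0.742 and 0.934.

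Ehhadh, the L-bifunctional enzyme of dicarboxylic acid oxidation and a known PPAR target, is described for its spread, which was seen in the values. It was at 10.88, 11.62 and 11.98 in DT 5, DT 9 and DT 16 and at 11.26, 10.77 and 11.05 in PBS 12, PBS 18 and PBS 20. Of the DT mice 2 were above every PBS mouse and DT 5 lay inside the PBS range, so that the difference of 0.47 had an SE of 0.27 and did not pass (95% interval -0.16 to 1.10, adjusted p = 0.545). Without DT 5 the difference was 0.77 (adjusted p = 0.14) and without DT 16 it was 0.22 (adjusted p = 0.861). Acot2, its relative Acot1 and the lipid droplet protein Plin5 had DT 5 as the lowest DT array and PBS 18 as the lowest PBS array, as Ehhadh did. They were picked for their spread, and this order was not particular to them. It was held by 14 of the 36 members, 8 of them mitochondrial and 6 peroxisomal, and by 0 of the 7 activation genes. In the other lists, 7 of 30 further oxidation genes, 6 of 16 peroxisome assembly genes and 4 of 15 PPAR targets outside the oxidation steps held it. It was held by 0 of 12 PPAR and PGC-1 regulators, 1 of 8 brown adipocyte markers, 0 of 8 macrophage markers and 0 of 8 skeletal muscle markers. Of all features 11.9% did. In DT 5 the deviation from the DT mean was -0.61 for Ehhadh, -0.30 for Acot2, -0.69 for Acot1 and -0.31 for Plin5. In PBS 18 the deviation from the PBS mean was -0.26, -0.16, -0.30 and -0.24 in the same order of genes. Acot1 and Acot2 are similar genes, and whether they share probe signal was not tested.

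Abcd2, the peroxisomal transporter for very long-chain acyl-CoA, had the widest spread of all members and almost no difference between groups. It was at 9.95, 8.64 and 9.09 in DT 5, DT 9 and DT 16 and at 9.55, 9.52 and 8.64 in PBS 12, PBS 18 and PBS 20 (difference -0.01, SE 0.37, 95% interval -0.87 to 0.85). Lep, the leptin gene and a white adipocyte marker, put the arrays in the same order as Abcd2 within each group. It was at 9.64, 6.69 and 6.86 in the DT arrays and 9.44, 8.37 and 7.56 in the PBS arrays. This order was held by 4 of 6 white adipocyte markers and 3.16% of all features. Of the 36 members 2 held it, Abcd2 and the thiolase Acaa1b. So did 1 of 30 further oxidation genes, 1 of 15 PPAR targets and 1 of 4 endothelial markers. Slc7a10 and Nnat shared that order among the DT arrays but not among the PBS arrays. None of the 6 white adipocyte markers was called, and their mean level was 7.3 to 8.6 in the DT arrays and 7.4 to 8.0 in the PBS arrays. The order shared by Abcd2 and Lep was noticed in the values, with 3 arrays per group, and their relation was not tested.

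**Figure D3:**
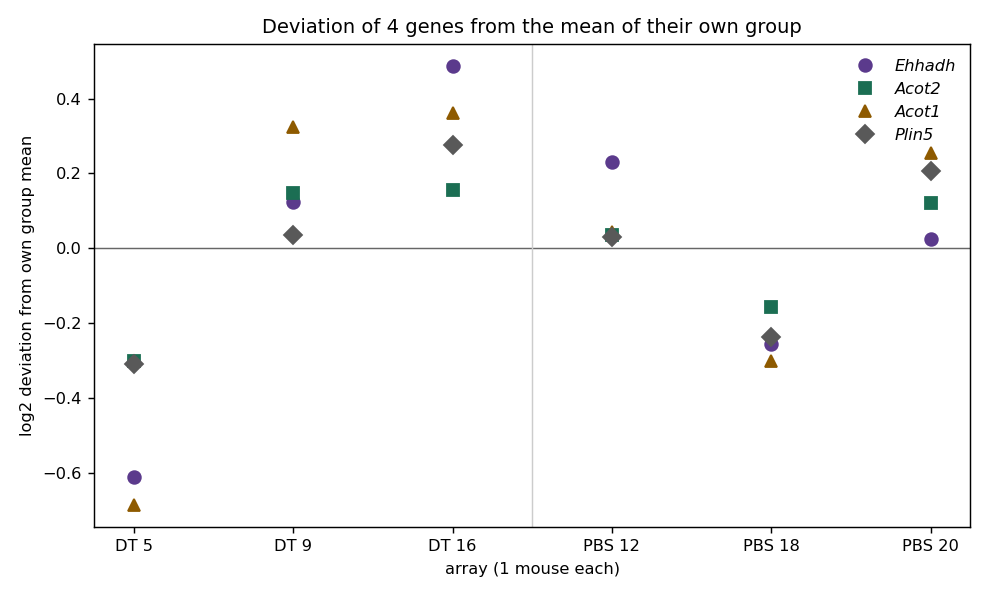
Deviation of Ehhadh, Acot2, Acot1 and Plin5 from the mean of their own group (y axis, log2 units) in each DT and PBS array (x axis, 1 mouse each). All 4 genes are lowest in DT 5 among the DT arrays, from -0.69 to -0.30, and lowest in PBS 18 among the PBS arrays, from -0.30 to -0.16.

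The position of single mice within their group was also counted. PBS 18 was the lowest of the PBS arrays in 21 of the 36 genes (58.3%, against 33.6% of all features), and PBS 12 the highest in 19 (52.8%, against 33.3%). DT 5 was the lowest DT array in 17 (47.2%, against 37.3%). In the mitochondrial step DT 5 was lowest in 9 and PBS 18 lowest in 10 of 15 genes. DT 9, with the highest mean level of skeletal muscle markers of all arrays (9.65), was lowest in 8 of the 36 and highest in 14. DT 5 and PBS 18, the arrays most often lowest in their groups, were close behind in these markers at 9.45 each. The part of muscle in these positions was not tested.

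No call was made in the wider pathway. Of 30 further measured genes of fatty acid oxidation none was called by limma, with 3 at an unadjusted p under 0.05 (5 without moderation), 15 positive and 15 negative differences and a median of 0.00. Nudt19, a peroxisomal CoA hydrolase, differed by -0.27 (adjusted p = 0.239). Slc25a20, the carrier that exchanges acylcarnitine across the inner membrane, averaged 12.36 ± 0.02 in DT and 12.35 ± 0.01 in PBS (SD, n = 3 each). Of 16 peroxisome assembly and membrane genes none was called and 1 had an unadjusted p under 0.05 in limma and without moderation alike (Pex2 -0.20, adjusted p = 0.316; Pxmp2 -0.25, adjusted p = 0.448).

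Among 12 regulators of the PPAR and PGC-1 kind none was called, with 2 at an unadjusted p under 0.05 (1 without moderation). Nrip1, a corepressor of oxidative genes in fat, came nearest. It was at 7.94, 7.93 and 7.98 in DT and at 7.20, 7.68 and 7.18 in PBS, with no overlap (difference 0.60, SE 0.14, adjusted p = 0.102), and it was called without PBS 18 (difference 0.76, adjusted p = 0.0135). Prdm16, the brown fat determination factor, differed by -0.26 (adjusted p = 0.299). Ppara, the receptor that drives oxidation genes, differed by 0.06 and Pparg by 0.01. Ppargc1a, the gene of a PGC-1 coactivator, was at 12.01, 12.10 and 12.37 in DT and at 11.47, 12.05 and 11.86 in PBS. These groups overlapped (difference 0.37, SE 0.16, adjusted p = 0.396). Of 15 measured PPAR targets outside the oxidation steps none was called, with 2 at an unadjusted p under 0.05 (5 without moderation), 11 positive and 4 negative differences (73.3% positive, against 46.0% of all features) and a median of 0.08. Angptl4, an inhibitor of lipoprotein lipase, was at 10.59, 10.70 and 10.91 in DT and at 10.22, 10.26 and 9.60 in PBS (difference 0.71, SE 0.18, adjusted p = 0.146). Gk, the glycerol kinase, was at 11.82, 11.87 and 12.02 in DT and at 11.39, 11.66 and 11.61 in PBS (difference 0.35, SE 0.10, adjusted p = 0.195). Both had all DT arrays above all PBS arrays, as 4 of these 15 targets did, while Cidea, a lipid droplet protein of brown fat, had all DT arrays below. The groups thus lay apart in 5 of 15 targets (33.3%), against 18.6% of all features. Bright features lie apart more often, 30.9% of those at the 80th percentile of mean signal or above. Of those bright features 44.4% had positive differences. The median of these targets was at the 94.5th percentile, but 3 of the 15 lay below the array median. The part of signal level in these shares was not tested.

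**Figure D4:**
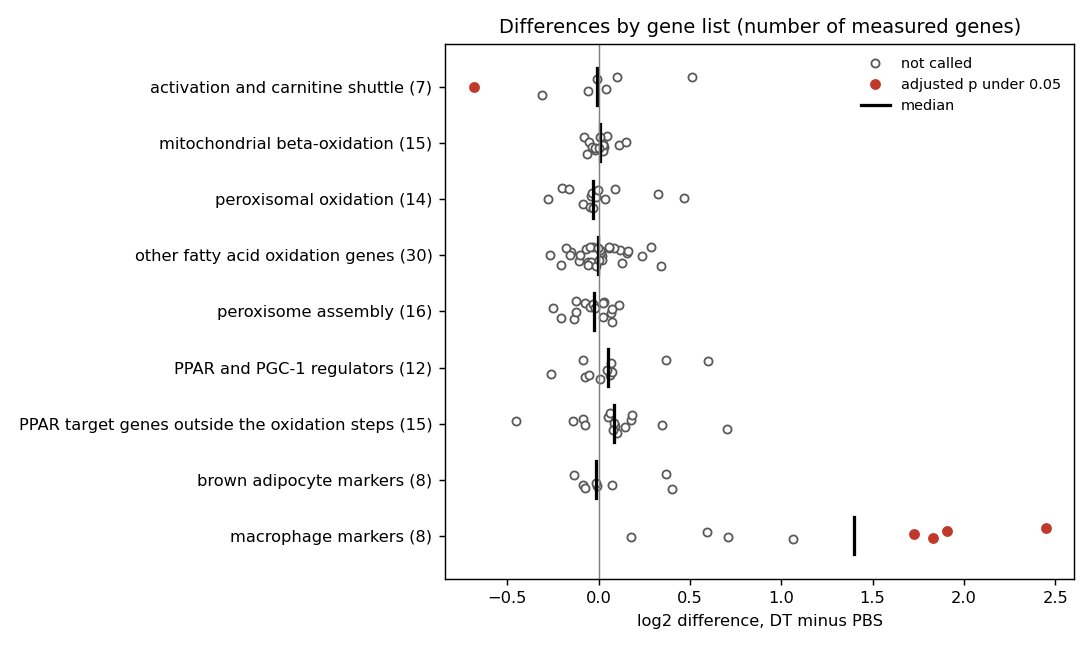
Log2 difference, DT minus PBS (x axis), of each measured gene by list (y axis, number of genes in parentheses); filled points passed the adjusted threshold, open points did not, and the black bar is the list median. The 3 oxidation steps have medians between -0.03 and 0.01 with 1 called gene, while the 8 macrophage markers have a median of 1.40 with 4 called.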

How the data were processed

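Gene expression was measured in BAT of 6 mice on Affymetrix arrays, 1 per mouse. The deposited values are log2 expression estimates, which the authors made per Entrez gene with a custom chip definition file, RMA (per the submitters' processing notes) and quantile normalization. Sorted values of any 2 arrays differed by at most 0.00179, so a shift of all genes in a group cannot be seen, and weak or very bright genes can be compressed. Arrays have no read depth, and their number (3 per group) limits precision. Features were named by Entrez number in a RefSeq gene table (23740 of 25206, 1466 unnamed); those without a name were tested but not named. Gk and Wfdc21 were matched through an older symbol.

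DT was compared with PBS in limma (version 3.58.1, R 4.3.3; lmFit, eBayes), 2-sided; p-values of all 25206 features were adjusted together (Benjamini-Hochberg, threshold 0.05). "Called" means past it; differences are DT minus PBS, SE and 95% intervals are from the moderated fit, and intervals are per gene. The code was tested on simulated data. p-values set a gene's difference against the spread between these mice, which the series' design calls biological replicates. In the moderated fit each gene's variance was drawn towards a value shared by all features. Groups share no animal number and no batch is given. The members, the lists and the motifs were chosen with earlier results of these data known. Every member is given, by its mean or difference; values in every array are given for called members, the 4 of each step with the smallest p and, picked after their values were seen, Ehhadh and Abcd2. Of the other lists the 2 genes with the smallest p were named, and Acot1, Plin5, Slc25a20, Ppara, Pparg, Ppargc1a, Cidea and the cell type markers were named outside that rule. Counts of array orders were added after the data were seen. A gene that this rule would name is not reported here. Protein sequence comparisons were not made. Alternatives were other normalizations, filters, priors, weights and thresholds, and leaving out each array.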

Additional observations from a re-analysis of the deposited data

How the results depend on the processing

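The count over all features was 436 and became 659 with an intensity trend and robust prior, 736 at an adjusted p under 0.1, 1295 at an unadjusted p under 0.01, 0 without moderation, and 135 to 374 with 1 array left out. The members' count of 1 (Acsl3) became 0 with cyclic loess, array weights or no moderation and whenever 1 array was left out, 2 with the trend and robust prior (Acsl3, Acsl5), and 4 at an unadjusted p under 0.01 (Acsl3, Acsl5 and Crot lower, Cpt1a higher). In the activation step the count was 0, 2 and 3 in the same settings. The adjusted p of Acsl3 was 0.062 with loess, 0.0536 with array weights and 0.253 without moderation, and its difference kept its sign in 16 of 16 settings. The mitochondrial and assembly counts were 0 in every setting run. The peroxisomal count was 1 at an unadjusted p under 0.01 and otherwise 0. With the trend and robust prior 1 gene was called in each of the lists of other oxidation genes, regulators (Nrip1) and PPAR targets (Gk). Each of these lists also had 1 gene at an unadjusted p under 0.01, which was Nrip1 among the regulators and Angptl4, not Gk, among the targets. The regulators' count was 0 to 1 with 1 array left out. The causes were not tested.

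Differences near 0 changed sign. Acadm was -0.0072, Acaa1a 0.031 and Abcd2 0.011 with loess, and Acaa1a was 0.022 with array weights. With 1 array left out, the differences spanned -0.020 to 0.0020 for Crat, -0.038 to 0.0023 for Acadvl, -0.0055 to 0.052 for Acadl, -0.019 to 0.043 for Acadm, -0.0041 to 0.066 for Acaa2, -0.044 to 0.0059 for Eci1, -0.034 to 0.10 for Eci2 and -0.020 to 0.058 for Etfa. They spanned -0.0093 to 0.049 for Etfdh, -0.098 to 0.051 for Acox3, -0.068 to 0.0026 for Hsd17b4, -0.062 to 0.078 for Acaa1a, -0.37 to 0.28 for Abcd2, -0.0085 to 0.066 for Abcd3, -0.080 to 0.19 for Acot4 and -0.10 to 0.063 for Acot8. No paired analysis was possible because the groups share no animal number.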
